A study of Danio rerio with 3 samples.

Results

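The 8 genes described here encode 2 kinds of chromatin protein that work on acetylated histones. They are brd2a, brd2b, brd3a and brd3b, which encode BET proteins, and ep300a, ep300b, crebbpa and crebbpb, which encode the acetyltransferases p300 and CBP. They were chosen by name from what these proteins do, with earlier results of these data known. Each name matched 1 of the 26437 rows of the deposited table. All 8 passed the filter on low values (an average of 1 FPKM or more across libraries), as did 14306 genes in all. FPKM is the number of sequenced fragments for each kilobase of a transcript, relative to all fragments of the library.

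Embryos of the AB strain of zebrafish were sequenced whole, with 1 library in each of 3 groups. The first group was the maternal-zygotic (MZ) double mutant nup85-/-;nup133-/- at 7 hours post fertilization (hpf), with dome morphology. The next was the same mutant at 4.3 hpf, whose title carries the stage tag 1k. The last was wild type at 4.3 hpf and at dome, when the yolk begins to push up under the blastoderm. They are called the MZ dome, the MZ 1k and the wild-type dome library below. Maternal-zygotic mutants carry the mutation in the mother, and so in what the egg receives, as well as in their own genome. Both mutated genes encode Y-complex subunits of the nuclear pore. The labels do not describe the alleles or say how many embryos were pooled. Genotype and stage tag differ together at 4.3 hpf, and genotype and age differ together at dome. Age and stage tag differ together between the mutant libraries, a comparison called between the mutant ages below. The parts of none of these pairs can be told apart.

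The early fish embryo runs on RNA and protein laid down by the mother until its own genome is switched on at the mid-blastula stage. The enzymes p300 and CBP are large coactivators that transcription factors bring to enhancers and promoters, where they acetylate histone tails. BET proteins carry tandem bromodomains that bind acetylated lysines, and an extra-terminal domain that recruits partners of RNA polymerase II. In zebrafish, histone acetylation by p300 and its reading by BET proteins are known to be needed for genome activation. Each of the proteins described here has a pair of genes, marked a and b, from the genome duplication of the teleost fishes.

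FPKM values summed to 431333 in the MZ dome library, 397357 in the MZ 1k library and 424486 in the wild-type dome library. Ratios of low values between libraries were most often 0.99 to 1.05, searched from 0.3 to 3.33, which is a weak guide to relative depth, and absolute depth is unknown. The transcript of nup133 stood at 1.91, 0.31 and 11.7 FPKM in that order of libraries, and that of nup85 at 9.55, 10.35 and 13.2 FPKM. Of 11 marker genes of the blastula embryo, 10 were matched, and 10, 6 and 10 of these reached 1 FPKM. Those below it in the MZ 1k library, krt4, krt18, ta and vent, are genes of the zygotic genome. Summed levels of 8 matched markers of differentiated tissues were 1.78, 0.14 and 4.32 FPKM. Of 6 matched markers of ovary and liver, the egg coat genes zp2.1, zp2.2 and zp3 were present, and the sums were 102.55, 84.35 and 198.88 FPKM. With 1 library in each group there is no replicate check, so no difference was tested and no error or p-value can be given. A lower FPKM is a smaller share of the library, and fewer cells of a type and less RNA per cell cannot be told apart.

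The BET gene brd2a had the largest difference from wild type among the 8. Its product is the fish counterpart of human BRD2, a BET protein bound to acetylated histone tails at active genes. It stood at 54.2 FPKM in the MZ dome library and 52.1 FPKM in the MZ 1k library, against 168.6 FPKM in the wild-type dome library. The mutant libraries were therefore close to each other and both about 3 times below wild type. On the scale of log2 ratios of FPKM + 1, which is used for all log2 ratios below, brd2a differed by -1.62 in the MZ dome library and -1.68 in the MZ 1k library relative to wild type. Between the mutant libraries, the MZ dome over the MZ 1k one, the log2 ratio was 0.06, and other scalings gave -0.43 to 0.22. Of the 14306 genes, 3.28% had a lower ratio at 7 hpf and 4.51% had a lower ratio at 4.3 hpf. As brd2a is named here for the largest difference of the 8, these shares do not say how rare its ratios are. Both comparisons share the single wild-type dome library, so both rest on the 168.6 FPKM measured there. The ovary and liver markers were also lower in sum in both mutant libraries, with the egg coat genes zp2.1, zp2.2 and zp3 at 42.7, 38.9 and 19.8 FPKM in the MZ dome library and 43.6, 24.7 and 16.01 FPKM in the MZ 1k library, against 68.6, 84.9 and 44.6 FPKM in the wild-type dome library. Their part in the brd2a values was not tested. In terms of rank, 92.7% of all genes with values lay below brd2a in the MZ dome library, 91.6% in the MZ 1k library and 98.6% in the wild-type dome library.

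Its paralog brd2b, which encodes a second Brd2 protein, followed another course. It stood at 7.75 FPKM in the MZ dome library and 26.2 FPKM in the MZ 1k library, against 23.2 FPKM in the wild-type dome library. The low library was the older mutant, while the other 2 lay within 1.12-fold of each other on the FPKM + 1 scale. The log2 ratio was -1.47 for the MZ dome library over wild type, 0.17 for the MZ 1k library over wild type and -1.64 for the MZ dome over the MZ 1k library. Taken within each library, where scaling has no effect, brd2a made up 87.5% of the FPKM of the Brd2 pair in the MZ dome library, 66.5% in the MZ 1k library and 87.9% in the wild-type dome library. The MZ dome library and wild type thus had nearly the same balance of the pair, at pair sums of 61.98 and 191.85 FPKM.

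**Figure D1:**
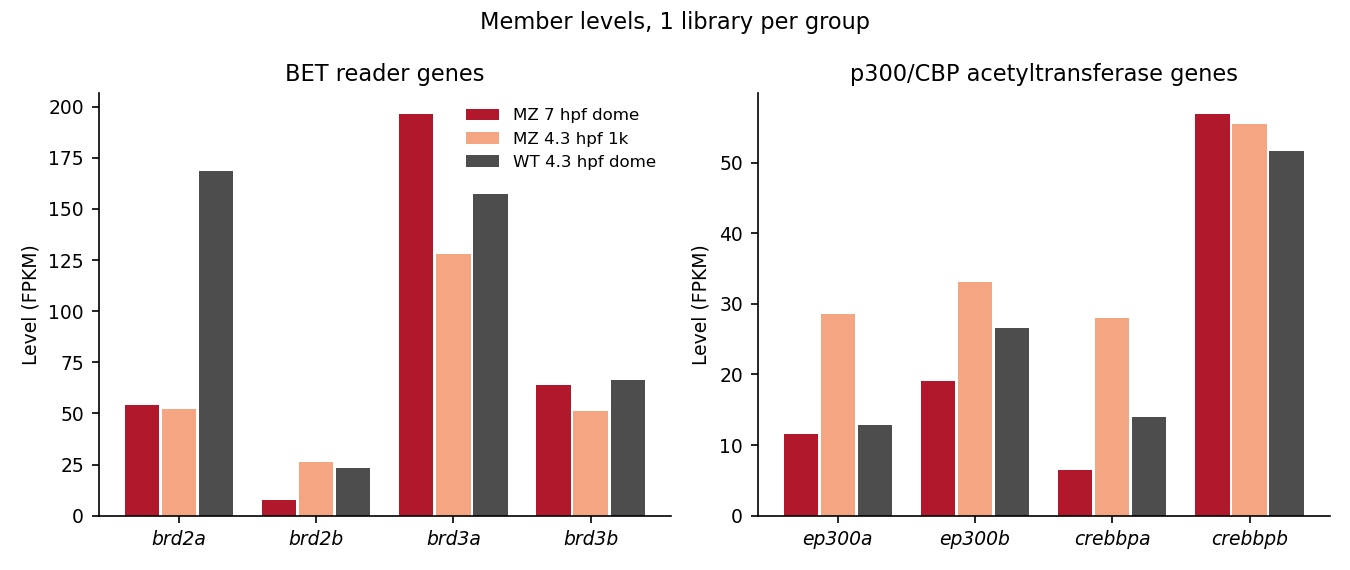
Levels of the 8 genes in FPKM (vertical axes, which differ in scale between the panels), with 1 bar for each gene and library. The brd2a bars of both mutant libraries stand at 54.2 and 52.1 FPKM beside 168.6 FPKM in wild type. Those of ep300a, ep300b and crebbpa are each at their own highest level in the MZ 1k library, at 28.5, 33.1 and 28 FPKM.

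The Brd3 pair was abundant in every library, and neither of its genes was 2-fold apart between any of them. The gene brd3a, whose product is another acetyl-lysine reader of the BET family, stood at 196.58 FPKM in the MZ dome library and 127.8 FPKM in the MZ 1k library, against 157.1 FPKM in the wild-type dome library. It was highest in the older mutant and lowest in the younger one, with log2 ratios to wild type of 0.32 and -0.30. The sign of the ratio at 7 hpf turned to -0.17 when libraries were scaled on proteasome genes. Those genes were themselves higher in the MZ dome library than in wild type, with a median log2 ratio of 0.48 as deposited. The ratio of brd3a between the mutant libraries was 0.62, the highest among the 8 genes. In the RefSeq annotation of another assembly, GRCz12tu, brd3a overlaps wdr5, which encodes a subunit of histone methyltransferase complexes. As the deposited values are not stated to use strand, reads of such neighbours may not be separable. The levels of wdr5 were 185.6, 145.2 and 207.4 FPKM in the MZ dome, MZ 1k and wild-type dome libraries, and their part in the brd3a values was not tested.

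The other copy, brd3b, stood at 63.7 FPKM in the MZ dome library and 50.98 FPKM in the MZ 1k library, against 66.2 FPKM in the wild-type dome library. All 3 values lay close together, and brd3b differed from wild type by log2 ratios of -0.06 in the MZ dome library and -0.37 in the MZ 1k library. The share of brd3a in its pair was 75.5% in the MZ dome library, 71.5% in the MZ 1k library and 70.3% in the wild-type dome library. Of the 4 paralog pairs this one had the steadiest balance.

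Among the acetyltransferase genes, ep300a, ep300b and crebbpa were each at their own highest level in the MZ 1k library. The level of crebbpb was nearly even across libraries as deposited. The gene ep300a, which encodes 1 of the p300 proteins, stood at 11.5 FPKM in the MZ dome library and 28.5 FPKM in the MZ 1k library, against 12.8 FPKM in the wild-type dome library. The older mutant and wild type had similar levels, with a log2 ratio of -0.14, and the younger mutant was above both. Its log2 ratio to wild type was 1.1 at 4.3 hpf, and the ratio of the MZ dome to the MZ 1k library was -1.24. In the same annotation of GRCz12tu ep300a overlaps cbx7b, a Polycomb family gene, which stood at 1.23, 5.5 and 1.31 FPKM in the MZ dome, MZ 1k and wild-type dome libraries. Its part in the ep300a values was not tested.

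The second p300 gene, ep300b, stood at 19.1 FPKM in the MZ dome library and 33.1 FPKM in the MZ 1k library, against 26.6 FPKM in the wild-type dome library. No pair of libraries was 2-fold apart, with log2 ratios of -0.45, 0.31 and -0.76 for the MZ dome library over wild type, the MZ 1k library over wild type and the MZ dome over the MZ 1k library. When libraries were scaled on proteasome genes, the last of these became -1.24. The share of ep300a in the p300 pair was 37.6% in the MZ dome library, 46.3% in the MZ 1k library and 32.5% in the wild-type dome library, so ep300b held more than ep300a in all 3.

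The CBP gene crebbpa had the largest difference between the mutant ages among the 8. It stood at 6.44 FPKM in the MZ dome library and 28 FPKM in the MZ 1k library, against 13.97 FPKM in the wild-type dome library. The younger mutant was above wild type and the older mutant below it. The log2 ratio to wild type was -1.01 at 7 hpf and 0.95 at 4.3 hpf, each close to the 2-fold line at 1, and the ratio of the MZ dome to the MZ 1k library was -1.96. Of the 14306 genes, 4.998% had a lower ratio between the mutant ages. As crebbpa is named here for the largest difference of the 8, this share does not say how rare its ratio is. In GRCz12tu this gene overlaps a long noncoding RNA gene, for which no value is used here.

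The gene crebbpb, which encodes the other CBP protein, differed least between libraries as deposited. It stood at 56.96 FPKM in the MZ dome library and 55.5 FPKM in the MZ 1k library, against 51.7 FPKM in the wild-type dome library. Its log2 ratios were 0.14, 0.10 and 0.04 for the MZ dome library over wild type, the MZ 1k library over wild type and the MZ dome over the MZ 1k library. The sign of each turned under at least 1 other scaling, down to -0.35, -0.06 and -0.45. Scaled on proteasome genes, brd3a differed less than crebbpb at 7 hpf and between the mutant ages, with log2 ratios of -0.17 and 0.12. The CBP pair was therefore mostly crebbpb in every library, but to a different degree. The share of crebbpa was 10.2% in the MZ dome library, 33.6% in the MZ 1k library and 21.3% in the wild-type dome library.

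**Figure D2:**
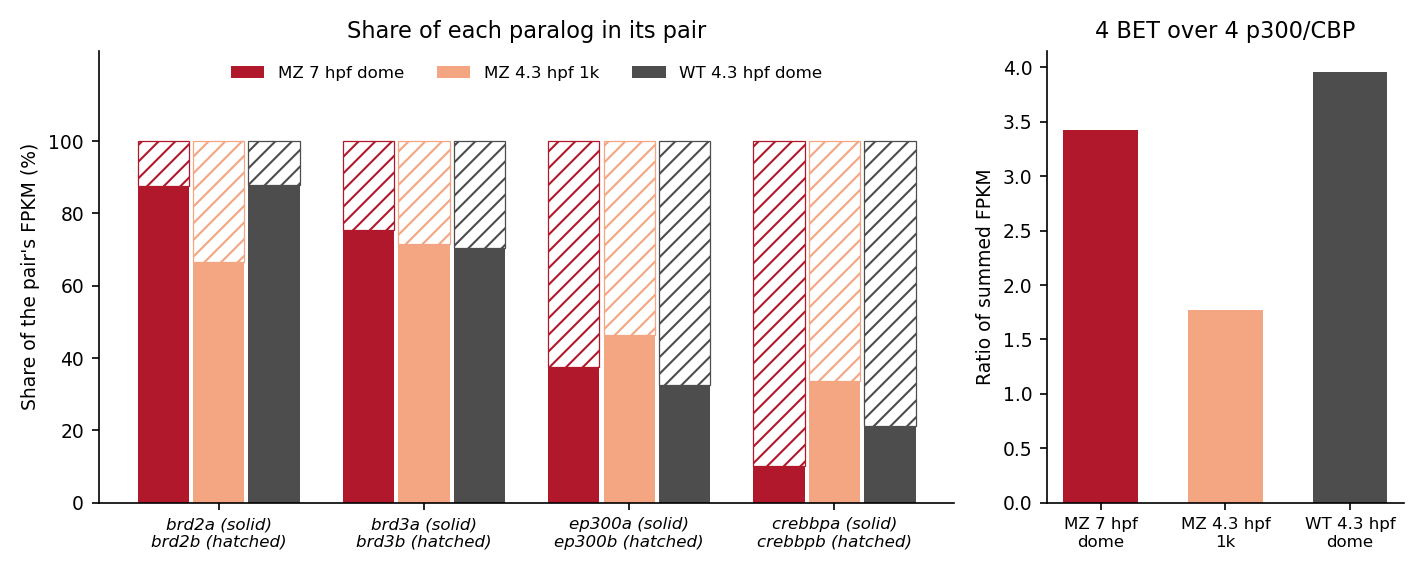
Left, share of each paralog in the summed FPKM of its pair, in percent, with the a copy solid and the b copy hatched. Right, summed FPKM of the 4 BET genes over that of the 4 p300/CBP genes. Each bar is 1 library, and the ratio at right is 3.43, 1.77 and 3.95 in the MZ dome, MZ 1k and wild-type dome libraries.

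FPKM is a value per length, so levels can also be set side by side between genes. In the MZ dome library the order from high to low was brd3a, brd3b, crebbpb, brd2a, ep300b, ep300a, brd2b and crebbpa. In the MZ 1k library the order was brd3a, crebbpb, brd2a, brd3b, ep300b, ep300a, crebbpa and brd2b. In the wild-type dome library it was brd2a, brd3a, brd3b, crebbpb, ep300b, brd2b, crebbpa and ep300a. The gene brd2a thus had rank 4, 3 and 1, while ep300b had rank 5 in all 3 libraries. Neighbours such as crebbpb, brd2a and brd3b in the MZ 1k library, at 55.5, 52.1 and 50.98 FPKM, cannot be ordered with any confidence, as no spread is known. The highest gene was 30.5 times the lowest in the MZ dome library, 4.87 times in the MZ 1k library and 13.2 times in the wild-type dome library. The 8 levels therefore lay closest together in the MZ 1k library.

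Summed over genes, BET transcripts were the larger class in every library. The 4 BET genes summed to 322 FPKM in the MZ dome library and 257 FPKM in the MZ 1k library, against 415 FPKM in the wild-type dome library. The 4 p300/CBP genes summed to 94.04 FPKM in the MZ dome library and 145 FPKM in the MZ 1k library, against 105 FPKM in the wild-type dome library. As deposited, the younger mutant had the lowest BET sum and the highest p300/CBP sum. Scaled on proteasome genes, the BET sums were 255 FPKM in the MZ dome library and 287 FPKM in the MZ 1k library, against 463 FPKM in the wild-type dome library, so the older mutant was then lowest. The p300/CBP sum stayed highest in the MZ 1k library under each scaling tried. The ratio of the sums, which does not depend on how libraries are scaled, was 3.43 in the MZ dome library, 1.77 in the MZ 1k library and 3.95 in the wild-type dome library. With brd2a left out it was 2.85, 1.41 and 2.35, so the MZ 1k library was again lowest. The share of brd2a in the BET sum was 16.8% in the MZ dome library, 20.3% in the MZ 1k library and 40.6% in the wild-type dome library. Without brd2a the BET sums were 268, 205 and 247 FPKM as deposited, and 212, 229 and 275 FPKM when scaled on proteasome genes, so whether the MZ dome library lay above or below wild type depended on the scaling.

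Outside the 8, the family gene brdt, named for a BET protein that acts in the mammalian testis, stood at 10.2 FPKM in the MZ dome library and 23.8 FPKM in the MZ 1k library, against 18.2 FPKM in the wild-type dome library. It was highest in the younger mutant and lowest in the older one, the order also seen in brd2b, ep300a, ep300b and crebbpa. How many of the 14306 genes had this order was not counted. Their median log2 ratios to wild type, 0.16 in the MZ 1k library and -0.05 in the MZ dome library, had the same signs. The log2 ratio of the MZ dome to the MZ 1k library was -1.15 for brdt. Of the 10 matched blastula markers, 2 had this order, buc and sox19b, which are supplied by the mother. They stood at 20.4 and 30.1 FPKM in the MZ dome library and 274 and 313 FPKM in the MZ 1k library, against 124 and 129 FPKM in the wild-type dome library. The maternal markers h1m and nanog did not have it and were highest in wild type. Nor did pou5f3, which was highest in the MZ dome library. It stood at 1095.7 FPKM there and 532.56 FPKM in the MZ 1k library, against 520.27 FPKM in the wild-type dome library. The part of these transcripts in the result was not tested. The 10 markers summed to 4098 FPKM in the MZ dome library and 2474 FPKM in the MZ 1k library, against 3072 FPKM in the wild-type dome library.

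**Figure D3:**
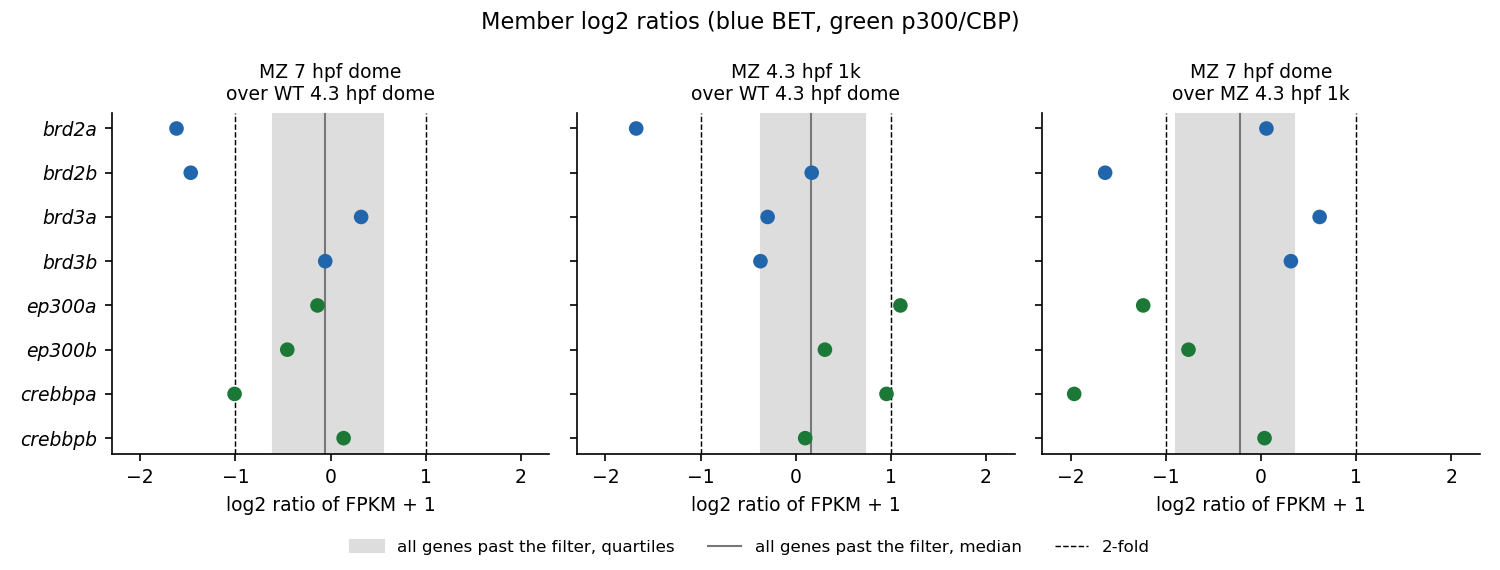
Log2 ratios of FPKM + 1 for the 8 genes in the 3 comparisons (horizontal axes), with BET genes in blue and p300/CBP genes in green. The grey band spans the lower to the upper quartile of the 14306 genes that passed the filter and the dashed lines mark 2-fold; brd2a lies at -1.62 and -1.68 relative to wild type and at 0.06 between the mutant libraries.

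The 8 genes were next set beside all genes that passed the filter. In the MZ dome library relative to wild type, brd2a, brd2b and crebbpa were 2-fold lower or more, 3 of 8, where 12.5% of all such genes were. None of the 8 was 2-fold higher or more, where 13.9% of all genes were. The median log2 ratio of the 8 was -0.30, and that of all such genes was -0.05. Scaled on proteasome genes, the share of all genes past 2-fold was 26% lower and 8.67% higher, and their median moved to -0.48, while that of the 8 moved to -0.76 with the same 3 genes past 2-fold.

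In the MZ 1k library relative to wild type, ep300a was past 2-fold in the higher and brd2a in the lower direction. Of all such genes, 16.6% passed 2-fold upward and 9.6% downward. The median of the 8 was 0.13, and turned to -0.03 under scaling by the median of ratios, while that of all genes was 0.16 and became 0.02. Under this scaling none of the 8 was 2-fold higher, with ep300a at 0.94. Scaled to equal sums, crebbpa was also past 2-fold, at 1.05.

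From the younger to the older mutant, brd2b, ep300a and crebbpa were past 2-fold lower in the MZ dome library, 3 of 8, and none was past 2-fold higher. Of all such genes, 22.2% passed 2-fold downward and 13.8% upward. The median of the 8 was -0.36 and that of all genes -0.21. Scaling on proteasome genes moved the median of all genes to -0.64, with 35.1% lower and 11% higher. The median of the 8 was then -0.85, with 4 of 8 past 2-fold lower, as ep300b was added.

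Other bromodomain genes gave a mixed picture. Of 30 that passed the filter, 5 were 2-fold or more lower and 1 was higher in the MZ dome library relative to wild type, beside 12.5% and 13.9% of all genes, with a median log2 ratio of -0.06. In the MZ 1k library relative to wild type 3 were higher and 1 was lower, beside 16.6% and 9.6% of all genes, with a median of 0.33. The lower one was brd8, whose product belongs to the NuA4/TIP60 acetyltransferase complex. It stood at 35.1 FPKM in the MZ dome library and 26.8 FPKM in the MZ 1k library, against 104.6 FPKM in the wild-type dome library, and so was low in both mutant libraries as brd2a was. The higher ones were brd1a, zmynd8 and ash1l, of which brd1a, a scaffold gene of acetyltransferase complexes, stood at 11.3 FPKM in the MZ 1k library against 1.79 FPKM in the wild-type dome library. It was also the higher one at 7 hpf, with 8.34 FPKM.

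Lower in the MZ dome library than in wild type were also smarca2, which encodes a chromatin remodelling ATPase, with a log2 ratio of -1.94, and zmynd11, a histone reader gene, with -1.56. Between the mutant ages 8 bromodomain genes were 2-fold or more lower in the MZ dome library, beside 22.2% of all genes, and none was higher, with a median of -0.34. Those with the largest ratios were brpf3b, baz1a and zmynd8, at -2.12, -1.96 and -1.93. That of zmynd8 rested on low levels, 0.63 against 5.19 FPKM. The most abundant gene of the list, smarca4a, another remodelling ATPase gene, stood at 151.8 FPKM in the MZ dome library and 102.8 FPKM in the MZ 1k library, against 139.4 FPKM in the wild-type dome library.

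Of the other histone acetyltransferase genes 16 passed the filter. Of these, none was past 2-fold in the MZ dome library relative to wild type, where 12.5% of all genes were lower and 13.9% higher. The median log2 ratio was -0.01, turning to 0.0044 with equal sums without the top 1% of genes. Scaled on proteasome genes, 3 were 2-fold or more lower there, beside 26% of all genes, and the median was -0.48. In the MZ 1k library 4 were 2-fold or more higher than in wild type, beside 16.6% of all genes, and none was lower, with a median of 0.16. With the median of ratios 2 were higher, beside 13.3% of all genes. The circadian gene clockb stood at 64.03 FPKM in the MZ 1k library against 8.11 FPKM in the wild-type dome library, and was at 9.5 FPKM in the MZ dome library. The genes kat6b and clocka had log2 ratios of 1.39 and 1.12 at 4.3 hpf relative to wild type. Relative to the MZ 1k library clockb, kat6b and kat7a were lower in the MZ dome library, with ratios of -2.63, -2.34 and -1.05. None was 2-fold or more higher, and of all genes 22.2% were lower and 13.8% higher. The most abundant gene of the list was kat7b, at 176.3 FPKM in the MZ dome library and 136.6 FPKM in the MZ 1k library, against 142.2 FPKM in the wild-type dome library.

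Genes of p300/CBP partners, which are transcription factors and adaptors that bind these enzymes, went both ways. Of 18 that passed the filter, 3 were 2-fold or more higher in the MZ dome library than in wild type, beside 13.9% of all genes, and none was lower. Scaled on proteasome genes, 1 was higher and 1 was lower, beside 8.67% and 26% of all genes. Among the 3 were cited4a and crema. The median log2 ratio was 0.0041, turning to -0.02 with equal sums and -0.39 when scaled on proteasome genes. At 4.3 hpf 4 were higher than in wild type and 3 were lower, beside 16.6% and 9.6% of all genes, with a median of -0.21. The crtc genes encode coactivators of CREB, and crtc1a and crtc2 were higher, at 15.8 and 24.4 FPKM in the MZ 1k library against 2.94 and 5.5 FPKM in the wild-type dome library.

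The cited genes encode adaptors that bind p300 and CBP directly, and cited4b and cited2 were lower, at 89.07 and 35.1 FPKM in the MZ 1k library against 209.3 and 81.8 FPKM in the wild-type dome library. In the MZ dome library cited4b was at 272.5 FPKM and cited2 at 72.9 FPKM. The gene crema had a log2 ratio of 1.30 and the NF-kB subunit gene rela one of -1.001 in the MZ 1k library relative to wild type. Between the mutant ages 5 partner genes were higher in the MZ dome library and 3 were lower, beside 13.8% and 22.2% of all genes, with a median of 0.19 that turned to -0.30 when scaled on proteasome genes. Among the higher ones were cited4a and cited4b, at 2.36 and 1.60. The lower ones were crtc1a, crtc2 and crtc3, at -2.53, -1.92 and -1.28. Low levels lay under the ratios of cited4a, 7.81 against 0.72 FPKM, and crtc3, 0.9 against 3.6 FPKM.

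Elongation genes, whose products act with or after BET proteins at paused RNA polymerase II, had few members past 2-fold. Of 29 that passed the filter, 1 was 2-fold or more lower and none was higher in the MZ dome library relative to wild type, beside 12.5% and 13.9% of all genes, with a median log2 ratio of -0.21. That gene was ell, an elongation factor gene, at 15.6 FPKM in the MZ dome library and 101.4 FPKM in the MZ 1k library, against 66.5 FPKM in the wild-type dome library. At 4.3 hpf 1 was higher than in wild type and none was lower, beside 16.6% and 9.6% of all genes, with a median of -0.18. The higher gene was jmjd6, with a ratio of 1.02 that fell short of 2-fold with the median of ratios and with equal sums without the top 1% of genes. Between the mutant ages ell and jmjd6 were lower in the MZ dome library, at -2.63 and -1.23, and none was 2-fold or more higher. Of all genes 22.2% were lower and 13.8% higher. The list's median of 0.05 turned to -0.45 when scaled on proteasome genes and to -0.07 with equal sums. The most abundant gene, ccnt2b, a cyclin gene of P-TEFb, stood at 149.2 FPKM in the MZ dome library and 155.3 FPKM in the MZ 1k library, against 199.7 FPKM in the wild-type dome library.

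Genes of the hdac and sirt deacetylase families and of corepressors, many of whose products remove or oppose acetylation, were counted in the same way. They were listed by family, not by whether each product acts on histones. Of 24 that passed the filter, 5 were 2-fold or more lower in the MZ dome library than in wild type, beside 12.5% of all genes, and none was higher, with a median log2 ratio of -0.33. The largest ratios were those of sirt7, hdac9b and sin3ab, at -1.45, -1.40 and -1.33. That of hdac9b rested on low levels, 0.27 against 2.36 FPKM. In the MZ 1k library 4 of 24 were higher than in wild type, close to the 16.6% of all genes, and none was lower. The median was 0.29, and the largest ratios were those of hdac4, hdac7b and hdac12 at 1.70, 1.62 and 1.49. Those of hdac7b and hdac12 rested on low levels, 4.52 and 3.32 FPKM against 0.79 and 0.54 FPKM in wild type. From the younger to the older mutant 9 were lower in the MZ dome library, beside 22.2% of all genes, and none was higher, with a median of -0.77. Among these hdac4 stood at 3.32 FPKM in the MZ dome library against 16.2 FPKM in the MZ 1k library. The gene sin3ab, for a corepressor scaffold, had a ratio of -1.87. The most abundant gene of the list was hdac1, at 411 FPKM in the MZ dome library and 264 FPKM in the MZ 1k library, against 336 FPKM in the wild-type dome library.

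**Figure D4:**
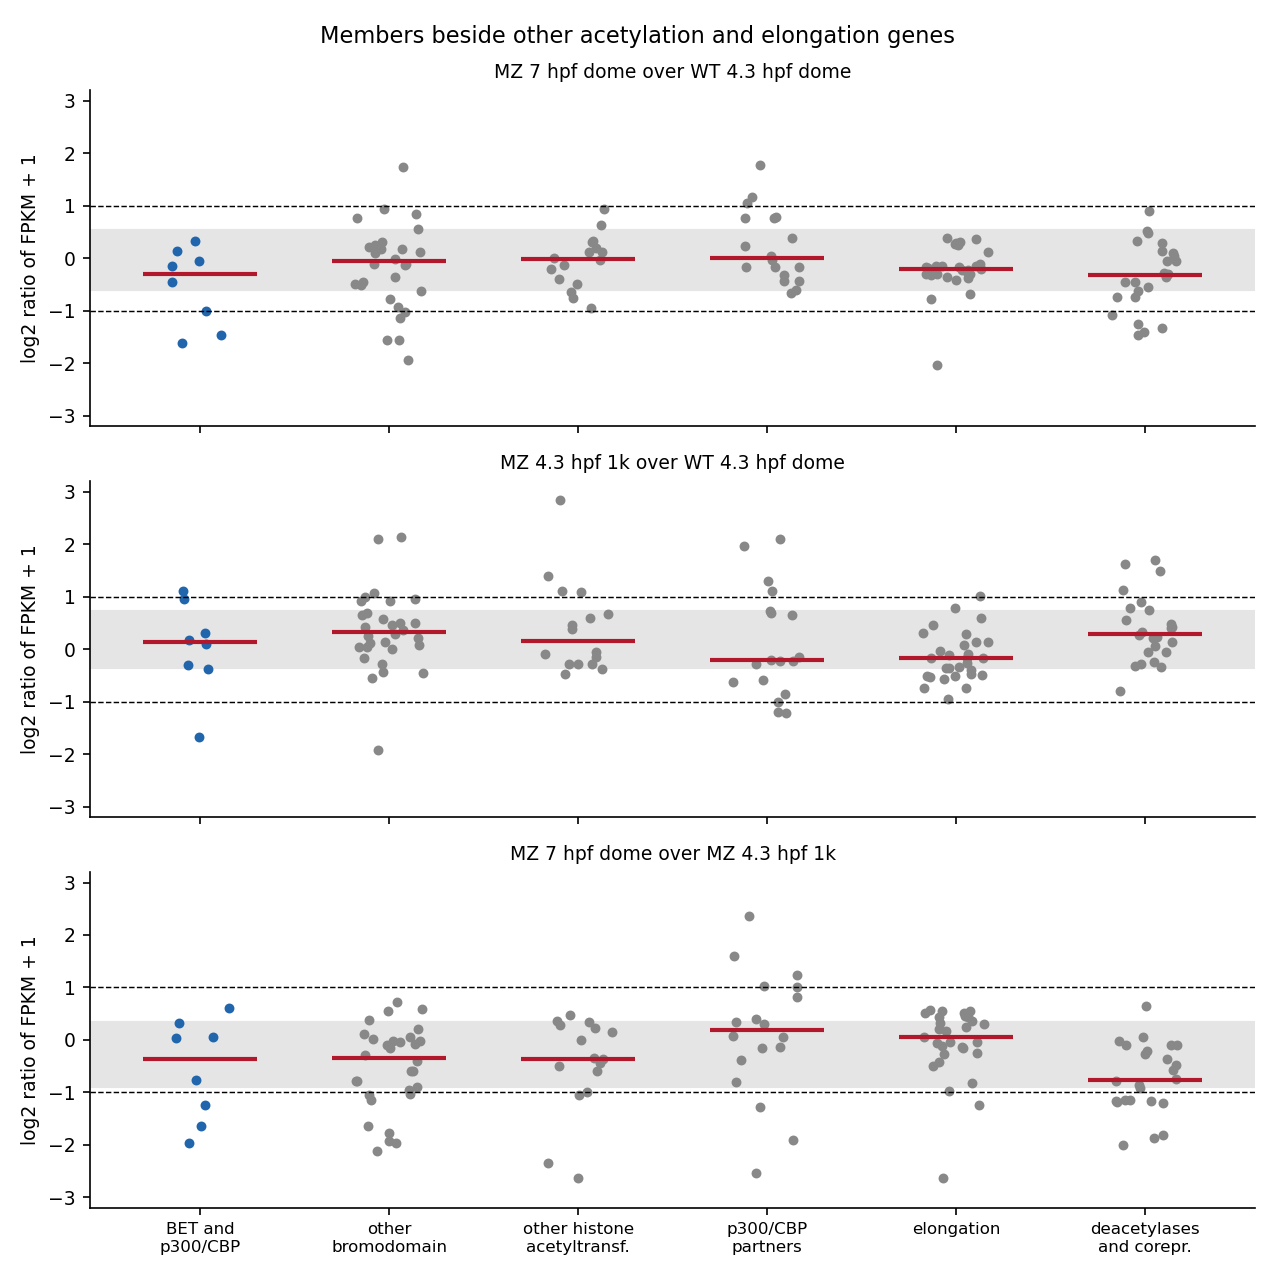
Log2 ratios of FPKM + 1 (vertical axes) of the 8 genes, in blue, and of 5 other lists, in grey, in the 3 comparisons; each point is 1 gene and the red line is the median of the list. The grey band spans the lower to the upper quartile of the 14306 genes that passed the filter, the dashed lines mark 2-fold, and the median of the deacetylase and corepressor list between the mutant ages lies at -0.77.

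The genes whose pattern over the 3 libraries was most like that of each of the 8 were found by the distance between log2(FPKM + 1) values after subtracting each gene's own mean. They were sought among 6504 other genes that average 10 FPKM or more. Nearest to brd2a was hsp90b1, an endoplasmic reticulum chaperone gene, at a distance of 0.06, with 57.7 FPKM in the MZ dome library and 54.8 FPKM in the MZ 1k library, against 169.4 FPKM in the wild-type dome library. Within 0.2 of brd2a lay 8 genes. A fixed distance holds fewer genes around a large difference than around level values, so these counts do not say how rare a course is. Nearest to crebbpa was mos, a kinase gene of oocyte maturation, at a distance of 0.0042, with 7.44 FPKM in the MZ dome library and 32.03 FPKM in the MZ 1k library, against 16 FPKM in the wild-type dome library. Within 0.2 of crebbpa lay 104 genes, within 0.2 of ep300a 103 and within 0.2 of brd2b 94. The nearest gene was slc35b3 for brd2b, zdhhc17 for ep300a, cdcp1b for ep300b, psma5 for brd3a, anapc16 for brd3b and ubap2a for crebbpb. The genes brd3b and crebbpb had 586 and 579 genes within 0.2, brd3a had 272 and ep300b 294. With only 3 libraries such likeness describes these values and no more.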

How the data were processed

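Per the labels' protocols, total RNA came from whole embryos freed of the chorion. The submitters' processing notes list Trimmomatic (0.36), Bowtie2 (2.2.5), RSEM (1.2.8) and the build GRCz11, with no role for each. Values are FPKM, 1 column a library, as the authors deposited them, to 0.01. How reads were split between similar paralogs was not given in the sources used here, nor was the use of strand, which leaves the levels of paralogs uncertain. Of the 26437 rows, 1051 have no value and were left out.

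Libraries were grouped by their titles. Ratios are log2((a + 1)/(b + 1)) of FPKM as deposited, with a pseudocount of 1, which understates differences of low genes, over the 14306 genes that average 1 FPKM or more. Genes are counted at 2-fold. No test was possible with 1 library for each group. Gene IDs were matched to RefSeq's GRCz12tu gene table, which held 91.5% of them and all 8 genes under the same symbol, and it was used for names and neighbours only.

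The 8 genes and the lists were chosen with earlier results of these data known. Named are the 8 genes, the most abundant gene of each other list and up to 3 with the largest ratio past 2-fold for each comparison and direction, and the nearest gene to each of the 8, leaving out symbols that are clone or locus numbers. Some genes that this rule covers are not reported here. The genes brdt, wdr5, cbx7b and the marker genes were named outside this rule, with their values in view. Alternatives were pseudocounts of 0.1 and 5, no filter and a filter at 5 FPKM, 4 other scalings (equal sums, median of ratios, proteasome genes, equal sums without the top 1%), and thresholds of 1.5-fold and 3-fold. Scripts were tested on simulated data. Python 3.11.15, numpy 2.4.6, pandas 2.3.3 and matplotlib 3.10.9 were used.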

Additional observations from a re-analysis of the deposited data

Results flagged for a closer look

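The gene crebbpa lay on opposite sides of wild type in the mutant libraries. Its log2 ratio to wild type was -1.01 in the MZ dome library and 0.95 in the MZ 1k library, from 6.44 FPKM and 28 FPKM against 13.97 FPKM in the wild-type dome library. It was picked out because both ratios exceeded 1.5-fold in opposite directions, which held for none of the other 7 genes. The difference was not tested, since each group has 1 library, and both ratios share the wild-type dome library.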

How the results depend on the processing

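The directions of the 8 genes' ratios past 2-fold could not have turned under the alternatives tried, so that they held is no check on them. A pseudocount, filter or threshold cannot turn the sign of a ratio. No scaling moved any library against another by as much as 2-fold. The count of the 8 genes 2-fold or more higher in the MZ 1k library than in wild type was 1 in the report. It was 0 with a pseudocount of 5, with the median of ratios and at 3-fold, and 2 with equal sums and at 1.5-fold. The shares of all genes higher there were 7.05%, 13.3%, 5.79%, 19% and 30.7% in that order, beside 16.6% in the report. The count lower in the MZ dome library than in wild type, 3 in the report, was 1 at 3-fold, where brd2a was left. It was 2, brd2a and brd2b, with a pseudocount of 5 and with equal sums without the top 1%. Among all genes 3.54%, 5.51% and 12.2% were lower under these settings in that order, beside 12.5% in the report. Between the mutant ages 1 gene, brd3a, was higher at 1.5-fold, where 19.1% of all genes were, against 0 in the report. The count lower there, 3 in the report, was 4 at 1.5-fold and when scaled on proteasome genes, and 2 at 3-fold. The shares of all genes lower there were 35%, 35.1% and 9.66% in that order. The ratio of crebbpa in the MZ dome library relative to wild type was -0.73 with a pseudocount of 5 and -0.99 with equal sums without the top 1%, and that of ep300a in the MZ 1k library relative to wild type was 0.92 with a pseudocount of 5. Over all alternatives brd2a ranged from -2.11 to -1.55 at 7 hpf and from -1.84 to -1.58 at 4.3 hpf. Among the other lists, the counts 2-fold or more higher at 4.3 hpf relative to wild type also moved. Bromodomain genes numbered 7 with equal sums and 2 with the median of ratios, against 3 in the report. Other acetyltransferase genes numbered 2 with the median of ratios, against 4. All genes were higher there in 19% with equal sums and in 13.3% with the median of ratios, beside 16.6% in the report. Scaled on proteasome genes, 26% of all genes were lower in the MZ dome library than in wild type and 8.67% were higher. Those lower then numbered 9 deacetylase and corepressor, 8 bromodomain, 3 acetyltransferase and 3 elongation genes, against 5, 5, 0 and 1. Among partner genes 1 was higher and 1 lower, against 3 and 0. Between the mutant ages 14 bromodomain and 4 elongation genes were lower under this scaling, against 8 and 2, where 35.1% of all genes were. With the median of ratios 5 bromodomain genes were lower there, beside 18.6% of all genes. Of elongation genes at 4.3 hpf, the median of ratios left 0 higher and 1 lower, against 1 and 0, beside 13.3% and 11.5% of all genes. Equal sums without the top 1% left 0 higher, beside 15.5% of all genes. Partner genes higher in the MZ dome than in the MZ 1k library numbered 3 with equal sums and 2 scaled on proteasome genes, against 5. The shares of all genes were 13.1% and 11% there, against 13.8%. Scaling multiplies every value of a library by 1 factor. The proteasome genes were themselves higher in the MZ dome library than in wild type as deposited, with a median log2 ratio of 0.48. Of the 36 that passed the filter, 10 were 2-fold or more higher, beside 13.9% of all genes. Scaling on them multiplied the MZ dome library by 0.71 relative to wild type, which lowered all its ratios. What lay behind the proteasome levels was not tested. No paired analysis was possible because each group has 1 library. Absolute depth is unknown, so no counting error can be given.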
